A study of Mus musculus with 4 samples.

Results

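The caveolin and cavin genes encode the coat proteins of caveolae, the small flask-shaped pits of the plasma membrane. The group taken here has 6 members of the 21911 protein-coding genes on chromosomes 1 to 19, X and Y: the caveolins Cav1, Cav2 and Cav3 and the cavins Cavin1, Cavin2 and Cavin3. They were chosen by symbol in the annotation GENCODE M21 on the mouse assembly mm10, and every deposited interval that met the gene body or the 50 kb on either side of it was taken.

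The data are DNase-seq of 3T3-L1, an immortalized mouse line of embryo fibroblasts that can turn into fat cells; the labels give the strain as C57BL/6J, the age and stage as unknown, and no treatment. DNase I cuts DNA that is not tightly wrapped in chromatin, so dense cutting marks accessible promoters and enhancers. Biosample 1 and biosample 2 carry the same labels, and each has 2 technical libraries that the authors pooled into 1 list of peaks and 1 list of hotspots. A peak is a window of 150 bp with a score, and a hotspot is a broader region of dense cutting. There is thus 1 list per biosample, with no replicate spread and no test, and the depth behind each list is unknown. Biosample 1 has 298793 peaks and 247031 hotspots, and biosample 2 has 97430 and 88636. Scores reach 150 in both lists but have a median of 65 in biosample 1 and 33 in biosample 2, so a peak is described by its score and by its percentile within its own list, where 100 is the strongest.

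Caveolae are built from caveolins, which sit in the inner leaf of the membrane as oligomers, and from cavins, which coat the pit from the cytoplasm. CAV1 and CAVIN1 are needed for caveolae in most tissues, CAV3 takes the place of CAV1 in skeletal and heart muscle, and CAV2 needs CAV1 to leave the Golgi. CAVIN2 helps to bend the membrane, and CAVIN3 is linked to the movement of caveolae and to signalling. Fat cells are among the cells richest in caveolae, and loss of CAVIN1 causes a lipodystrophy in people.

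Of the 6 genes, 5 had a peak at the promoter in both lists: Cav1, Cav2, Cavin1, Cavin2 and Cavin3. Cav3, the muscle caveolin, had none in either list. A promoter peak here lies within 1000 bp of any annotated start site of the gene. By the same rule, biosample 1 marked the promoters of 65.0% of all protein-coding genes and biosample 2 those of 53.9%, and 53.7% were marked by both.

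The sequences below, read from GRCm38.p6, show what lay under the strongest promoter peak of biosample 1 at 4 of these genes. They are written 5′ to 3′ on the strand of the gene, without untranslated bases, and capitals mark matches to the searched motifs. At Cavin1 the strongest peak lay wholly in the 5′ untranslated region and is not printed.
Cav1 (chr6:17306056-17306205, plus strand): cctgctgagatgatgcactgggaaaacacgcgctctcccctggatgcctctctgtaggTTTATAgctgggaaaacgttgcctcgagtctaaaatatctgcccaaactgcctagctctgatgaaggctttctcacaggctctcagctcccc
Cav2 (chr6:17281056-17281184, plus strand): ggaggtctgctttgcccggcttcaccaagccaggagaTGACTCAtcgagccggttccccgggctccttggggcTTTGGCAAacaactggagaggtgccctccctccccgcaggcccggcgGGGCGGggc
Cavin2 (chr1:51288956-51289105, plus strand): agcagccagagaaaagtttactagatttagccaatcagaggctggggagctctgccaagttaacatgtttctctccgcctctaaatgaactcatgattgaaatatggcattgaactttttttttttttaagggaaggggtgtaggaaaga
Cavin3 (chr7:105482301-105482365, minus strand): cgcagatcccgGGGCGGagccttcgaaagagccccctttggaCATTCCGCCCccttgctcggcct

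The printed stretches differed in base composition. The printed Cav2 stretch was 69% G and C and held matches to AP-1 (TGACTCA), C/EBP (TTTGGCAA) and the GC box (GGGCGG). The Cavin3 stretch was 67.7% G and C and held a GC box (GGGCGG) and a TEAD match (CATTCC) that overlaps a further GC box on the opposite strand (CCGCCC). It covers only 65 bp of the Cavin3 peak, as 85 untranslated bases are not printed. The overlapping peak of biosample 2, searched whole, also held an AP-1 match. The Cavin2 stretch was 40% G and C, had 1 CpG and held no match to any motif searched. The Cav1 stretch was 52.7% G and C, and its capitals are a TATA box match on the opposite strand (TTTATA). A match is a description of the letters and says nothing of binding.

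In the 1000 bp around the most upstream start site, the ratio of observed to expected CpG was 0.46 at Cav1, 0.50 at Cav2, 0.33 at Cav3, 0.60 at Cavin1, 0.27 at Cavin2 and 0.61 at Cavin3. Among all genes with a ratio of at least 0.6, 8221 of 10066 (81.7%) had a promoter peak in both lists, against 3554 of 11845 (30%) with a lower ratio. By the most upstream start, Cav1, Cav2 and Cavin2 were thus open members of the class in which most promoters were not. The ratio does not describe the downstream starts of Cav1, where the peak chr6:17307596-17307745 was 65.3% G and C and had 12 CpG.

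Cav1 encodes the main caveolin outside muscle. It spans chr6:17306335-17341452 on the plus strand and has 9 annotated start sites. Biosample 1 had 4 promoter peaks there, with scores of 56, 144, 93 and 141, and biosample 2 had 2, with scores of 91 and 62. The strongest in biosample 1 was chr6:17306056-17306205 (percentile 98.6), centred 204 bp upstream of the first start site, and its partner in biosample 2 was chr6:17306016-17306165 (percentile 98). The other shared promoter peak had the same coordinates in both lists, chr6:17307596-17307745, in the 5′ untranslated region of the downstream start sites, at percentile 97.5 in biosample 1 and 85.7 in biosample 2. Both lists therefore marked 2 separate sites over the alternative starts of Cav1, and both ranked the upstream one first.

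The weakest Cav1 promoter peak of biosample 1, chr6:17305196-17305345, lay 990 bp from the first start site and scored 56. An overlapping peak of the same list lay 1010 bp away, just outside the 1000 bp limit, and scored 57. Neither had a counterpart in biosample 2.

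Cav2 encodes the caveolin that pairs with CAV1. It spans chr6:17281185-17289115, upstream of Cav1 on the same strand, with 3 start sites. Its promoter peaks in biosample 1 scored 134, 126 and 123, and all 3 were shared with biosample 2, where the peaks scored 63, 45, 32 and 39. The strongest had the same coordinates in both lists, chr6:17281056-17281205, at percentile 94.7 in biosample 1 and 86.4 in biosample 2. The peak scoring 32, chr6:17281796-17281945, met no peak of biosample 1 but lay inside one of its hotspots. The Cav2 promoter was thus covered by a run of peaks in both lists and ranked below that of Cav1 in both.

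Cav3 encodes the muscle caveolin and spans chr6:112459505-112472872 on the plus strand, with 1 start site. The region around it held 12 peaks in biosample 1 and 2 in biosample 2, and no hotspot of either list met its promoter. The only peak in the gene body, chr6:112465676-112465825 in an intron, scored 49 in biosample 1 alone. The strongest peak, chr6:112490956-112491105, lay 31526 bp downstream of the start between genes, scoring 93 in biosample 1 and 15 in biosample 2 (percentiles 72.5 and 9.41). That peak lay over 1000 bp from any start of the neighbouring gene Oxtr, but the biosample 1 hotspot that held it lay within 1000 bp of one. Other peaks of biosample 1 lay in the 3′ untranslated region or an intron of Oxtr. All 14 peaks lay at or beyond the Cav3 intron on the downstream side, and the upstream 50 kb had none.

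Cavin1 encodes the cavin that coats caveolae in most tissues and spans chr11:100956733-100970887 on the minus strand, with 2 start sites. Its promoter peaks scored 144, 137 and 110 in biosample 1 and 72 and 48 in biosample 2. The strongest were chr11:100970636-100970785 in biosample 1 (percentile 98.6) and chr11:100970616-100970765 in biosample 2 (percentile 91.6), both in the 5′ untranslated region. The peak scoring 137 lay in the intron at chr11:100969716-100969865 and was shared with the one scoring 48 at chr11:100969736-100969885. The peak scoring 110, over coding sequence, was found in biosample 1 alone.

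Cavin2 spans chr1:51289126-51302960 on the plus strand, with 1 start site. Its promoter peak had the same coordinates in both lists, chr1:51288956-51289105, centred 95 bp upstream of the start. It scored 132 in biosample 1 (percentile 93.8) and 90 in biosample 2 (percentile 97.8). Each list had 1 further promoter peak in the intron, scoring 81 in biosample 1 and 13 in biosample 2 at chr1:51290116-51290265, and the pair did not meet. The latter lay 990 bp from the start, just inside the limit; the next peak of biosample 2, 1130 bp away, scored 14.

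Cavin3 spans chr7:105480083-105482300 on the minus strand, with 1 start site, which the unconfirmed transcript Gm45667 starts beside. The promoter had 4 peaks in each list, and every one was shared. In biosample 1 they scored 142, 140, 131 and 122, and in biosample 2 the partners scored 81, 67, 46 and 52. The strongest, chr7:105482216-105482365 (percentile 97.9) and chr7:105482236-105482385 (percentile 95.4), lay over the start site. Cavin3 was the member with the most shared promoter peaks.

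The strongest promoter peaks were then ranked among the 11775 genes open in both lists, which places both biosamples on the same scale. In biosample 1 the order was Cav1 and Cavin1 (both at percentile 81.8 of these genes), Cavin3 (72.6), Cav2 (43.2) and Cavin2 (37.6). In biosample 2 it was Cav1 (90), Cavin2 (89.2), Cavin3 (79), Cavin1 (65.5) and Cav2 (50.9). With 1 list per biosample, neighbours in these orders cannot be separated by any measured spread. Cav1 was first in biosample 2 and level with Cavin1 at the top in biosample 1, and Cavin2 moved from last to second.

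The move of Cavin2 was 51.6 percentile points upward, larger than that of 99.9% of the open genes. The quartiles of these moves over the open genes were −7.43 and 7.47 points. Cav1, Cav2 and Cavin3 moved by 8.27, 7.73 and 6.4 points. Cavin1 moved by −16.3 points, and 10.7% of open genes had a lower value. This comparison of ranks was added after the values had been seen, and its cause was not tested.

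**Figure D1:**
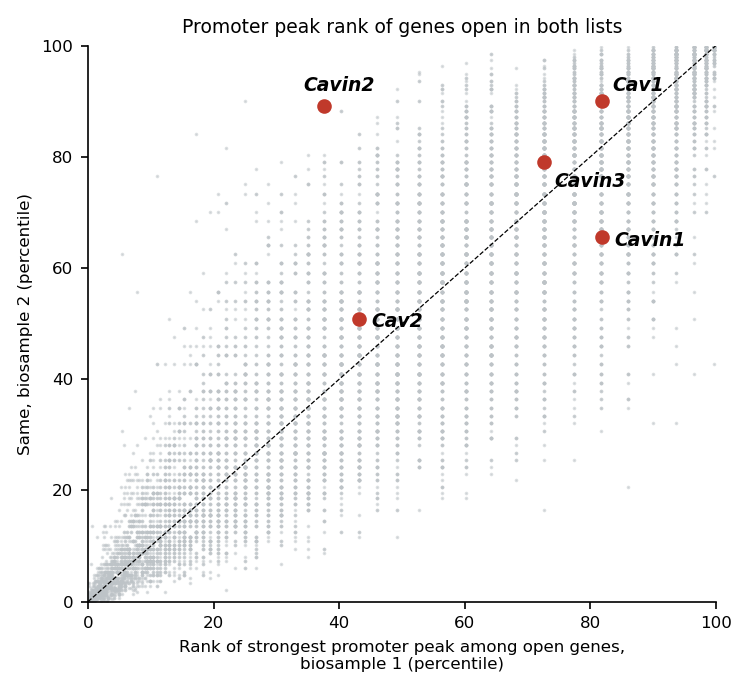
Each grey point is 1 of the 11775 genes with a promoter peak in both lists, placed by the rank of its strongest promoter peak among these genes in biosample 1 (horizontal, percentile) and biosample 2 (vertical, percentile); red points are the 5 open members and the dashed line marks equal ranks. Cavin2 lies far above the line (37.6 and 89.2), Cavin1 below it (81.8 and 65.5), and the other members near it.

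At the level of hotspots, each open member had a promoter hotspot at the upper limit of 100 for the −log10 q value in both lists. Reaching this limit was common, with a share of 49.4% over the full hotspot list in biosample 1 and 42.8% in biosample 2. The limit alone therefore does not set these promoters apart. In biosample 1 a single hotspot of 2328 bp covered the Cav2 promoter, 1763 bp that of Cavin1, 2957 bp that of Cavin2 and 2437 bp that of Cavin3. At Cav1 the promoter hotspots were 127, 1121 and 3306 bp wide, the widest reaching into the intron. In biosample 2 the promoter hotspots at the limit were narrower, at 764 bp for Cav1, 1295 bp for Cav2, 507 bp for Cavin1, 785 bp for Cavin2 and 716 bp for Cavin3.

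Around the genes, the number of peaks per member ran from 12 to 47 in biosample 1 and from 2 to 18 in biosample 2. Cavin1 had the most in both, 47 and 18, followed in biosample 1 by Cav1 (41), Cavin3 (40), Cav2 (36) and Cavin2 (27). In biosample 2 Cav1 had 16, Cav2 and Cavin3 had 12 each and Cavin2 had 6. The windows of Cav1 and Cav2 overlap and have 31 peaks of biosample 1 and 10 of biosample 2 in common, so these 2 genes are not independent entries. Counted once, there were 172 peaks in biosample 1 and 56 in biosample 2.

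Per 100 kb of window, the median protein-coding gene had 18.3 peaks in biosample 1 and 6.34 in biosample 2. Cavin1 had 41.2 and 15.8, above 94.1% and 94.5% of genes. Cavin3 had 39.1 and 11.7, Cav2 33.4 and 11.1, and Cav1 30.3 and 11.8. Cavin2 had 23.7 in biosample 1, above the median gene, and 5.27 in biosample 2, below it. Cav3 had 10.6 and 1.76, lower than the median gene in both. Hotspots covered 15.9% and 6.04% of the Cavin1 window and 2.56% and 0.189% of the Cav3 window, against 6.86% and 2.01% for the median gene. They covered 10.2% and 2.44% of the Cavin2 window, above the median gene in both lists, unlike its peak density in biosample 2.

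**Figure D2:**
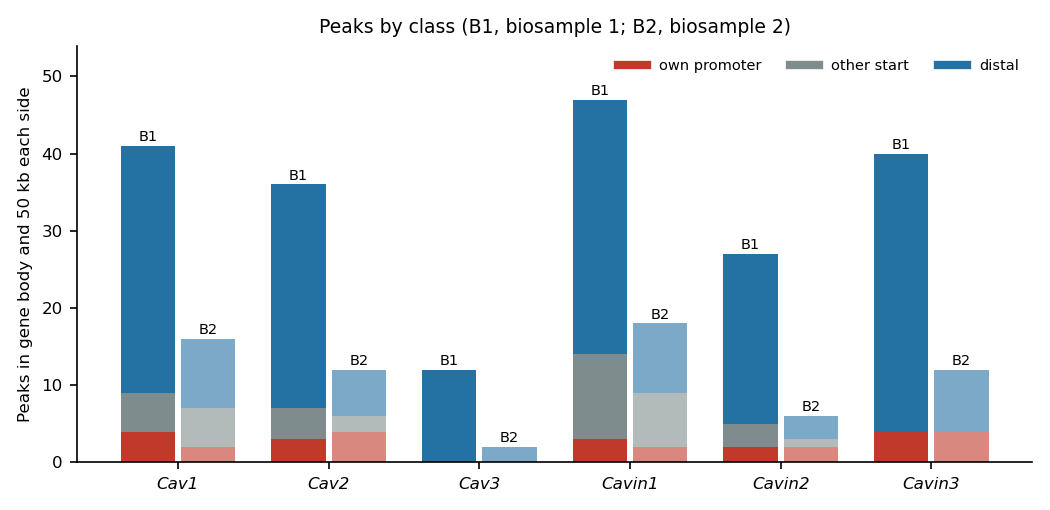
Bars give the number of peaks in each gene body and 50 kb on either side, for biosample 1 (B1, full colour) and biosample 2 (B2, pale), split into the gene's own promoter (red), start sites of other genes (grey) and distal peaks (blue). Cavin1 has the tallest bars (47 and 18) and Cav3 the shortest (12 and 2), with no red part.

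Part of these peaks belonged to neighbouring promoters. In the Cavin1 window, 11 peaks of biosample 1 lay within 1000 bp of the starts of Stat3, a transcription factor of cytokine signalling, or Atp6v0a1, a subunit of the vacuolar proton pump. The strongest there scored 147 and 94 at Stat3 and 140 and 80 at Atp6v0a1, in biosample 1 and 2. In the Cav1 window the non-coding gene Gm29591 had a start site peak scoring 134 and 79, and in the Cavin2 window 9330175M20Rik, which runs antisense across Cavin2, had one scoring 127 and 61. The strongest Cav1 promoter peak and many distal peaks around Cav1 and Cav2 lay within a further non-coding gene, Gm15581. The strand of transcription cannot be read from DNase data, so accessibility within these non-coding genes is not assigned to them or to the members.

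Distal peaks, those over 1000 bp from any annotated start, numbered 140 in biosample 1 and 33 in biosample 2. The strongest distal site of the whole group stood 9224 bp upstream of the first Cavin1 start, between genes, at chr11:100980036-100980185. It scored 147 in biosample 1 (percentile 99.5) and 96 in biosample 2 (percentile 98.8), above the Cavin1 promoter in both. The second highest by mean percentile lay 23855 bp upstream of Cavin2, at chr1:51265196-51265345, within 9330175M20Rik, and scored 138 and 94 (percentiles 96.4 and 98.5). The third lay 3664 bp upstream of Cavin1, at chr11:100974476-100974625, and scored 143 and 73 (percentiles 98.3 and 92.1). The first and the third of these sites thus stand upstream of Cavin1, and the Cavin2 site ranked higher in biosample 2 than in biosample 1, as its promoter did.

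These 3 sequences are shown because they are the shared distal sites with the highest mean percentile. They are written on the strand of the gene, with motif matches in capitals. Each holds the AP-1 motif, which played no part in the choice.
Cavin1 distal, 9224 bp upstream (chr11:100980036-100980185, minus strand): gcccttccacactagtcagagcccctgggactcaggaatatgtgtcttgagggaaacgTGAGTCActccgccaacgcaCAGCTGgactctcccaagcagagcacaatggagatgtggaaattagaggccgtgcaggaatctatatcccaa
Cavin2 distal, 23855 bp upstream (chr1:51265196-51265345, plus strand): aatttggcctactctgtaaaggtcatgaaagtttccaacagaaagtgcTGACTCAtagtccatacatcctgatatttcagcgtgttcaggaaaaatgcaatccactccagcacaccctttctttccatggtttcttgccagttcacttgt
Cavin1 distal, 3664 bp upstream (chr11:100974476-100974625, minus strand): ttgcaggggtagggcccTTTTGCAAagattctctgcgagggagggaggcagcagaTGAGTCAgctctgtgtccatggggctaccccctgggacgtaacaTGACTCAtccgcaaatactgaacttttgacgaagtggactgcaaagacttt

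The site nearer to Cavin1 held AP-1 on 2 occasions (TGAGTCA and TGACTCA) beside a C/EBP match (TTTTGCAA), the motif of the factors that start the fat cell programme. The farther one held AP-1 (TGAGTCA) and an E-box of the muscle type (CAGCTG). The Cavin2 site held AP-1 (TGACTCA) alone among the motifs searched.

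Over all distal peaks of the 6 genes in biosample 1, 46 of 140 (32.9%) held AP-1 (TGANTCA, both strands), against 24.7% of all distal peaks of that list. TEAD (CATTCC) was found in 27 (19.3%, against 14.1%) and C/EBP (TTGCNNAA) in 15 (10.7%, against 7.9%). CTCF was found in 5 (3.57%, against 4.03%). Among the 29 distal peaks that were shared with biosample 2, 16 held AP-1, where 33% of all shared distal peaks did. Of the same 29, TEAD was found in 4 (against 15.6%), so its higher share did not extend to the shared peaks. C/EBP was found in 3 (against 8.51%) and CTCF in 3 (against 9.15%). In the 16 promoter peaks, the GC box was found in 5 (31.2%, against 22.7% of all promoter peaks), TEAD in 4 (25%, against 8.83%) and ETS (CCGGAAG) in 0 (against 4.97%). Among the 12 promoter peaks that were shared with biosample 2, 4 held the GC box, where 35.2% of all shared promoter peaks did. TEAD was found in 3 of the 12 (against 8.18%) and ETS in 0 (against 9.16%). These shares are descriptions of letters in windows of 150 bp, and overlapping peaks share letters.

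The other leading distal sites were as follows. Cavin1 had a site in its intron at chr11:100962456-100962605, scoring 140 and 75. A further Cavin1 site, 32344 bp upstream of the first start, scored 142 and 71. Cav1 and Cav2 share their strongest distal sites, which stand upstream of both genes at chr6:17258976-17259125 (139 and 53) and chr6:17258276-17258425 (135 and 65), and in the Cav1 intron at chr6:17309396-17309545 (136 and 48). Downstream of Cav1, a site 47736 bp from the first start scored 61 in biosample 2 and its partner 129 in biosample 1, and upstream of Cav2 one at chr6:17247116-17247265 scored 135 and 54. No DNase measure says which of the neighbouring genes such a site acts on.

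Cavin3 had 2 distal sites with the same score of 136 in biosample 1: chr7:105458676-105458825, in an intron of Cckbr, a gastrin and cholecystokinin receptor, and chr7:105498956-105499105, upstream of Cavin3. Their partners in biosample 2 scored 59 and 44. A peak between the genes at chr7:105477936-105478085 scored 125, with a partner of 53. After its upstream site, Cavin2 had a shared site in its intron at chr1:51290736-51290885, scoring 111 and 34. Except at Cav3 and for that Cavin2 intron site, the shared sites named here lay above percentile 90 in biosample 1.

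**Figure D3:**
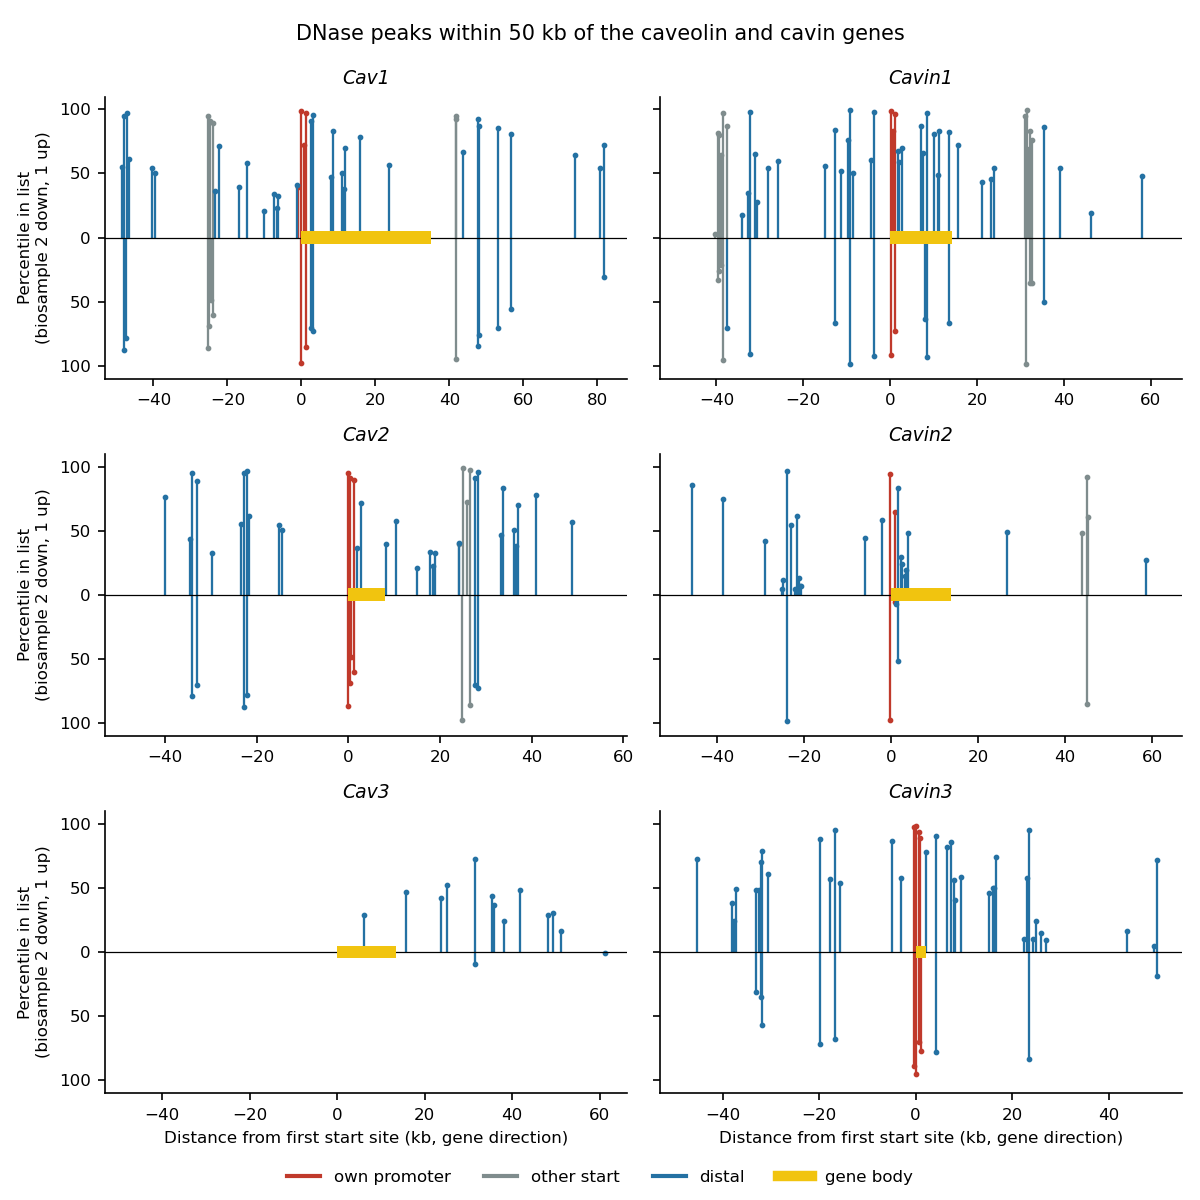
Each panel shows the peaks around 1 gene by distance from its first start site in kb, in the direction of the gene (horizontal), with height giving the percentile of the peak in its own list, upward for biosample 1 and downward for biosample 2. Colours mark the gene's own promoter (red), start sites of other genes (grey, in the Cav1 and Cav2 panels partly each other's) and distal peaks (blue), and the yellow bar is the gene body. Strong sites appear on both sides of the line at 5 genes, whereas Cav3 has no red line and only 2 peaks below the line.

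Most strong peaks of biosample 1 had a partner in biosample 2 and most weak ones did not, whereas most peaks of biosample 2, weak ones included, had a partner. Around the 6 genes, 51 of 172 peaks in biosample 1 (29.7%, with a 95% Wilson interval of 23.3 to 36.9) had a partner in biosample 2, where 30.4% of the whole list did. In the other direction, 51 of 56 peaks (91.1%, 80.7 to 96.1) had a partner, where 93.5% of the list did. These shares are near those of the lists and show nothing that sets the group apart. The intervals cover counting error only.

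By class, 12 of 16 promoter peaks of biosample 1 (75%, 50.5 to 89.8) were shared, where 44.2% of all peaks within 1000 bp of a protein-coding start were. The promoter peaks of the members were mostly strong, with a median percentile of 93.6, and at matched strength their shares were near those of the list: 10 of 10 against 96.1% above percentile 90, and 2 of 3 against 67.1% from 75 to 90. Of the 140 distal peaks, 29 (20.7%, 14.8 to 28.2) were shared, against 27.7% of all peaks over 1000 bp from any start. In biosample 2, 12 of 14 promoter peaks and 30 of 33 distal peaks were shared. Where a pair of peaks met, 16 of 51 had the same centre, 21 were shifted by 20 bp, 8 by 40 bp and 6 by more, up to 140 bp. The percentiles of the pairs in the 2 lists had a Spearman's rho of 0.899 over 51 sites, given as a description, since the sites share the libraries.

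At matched strength, the share of distal peaks with a partner differed from that of the list mainly in the middle ranks; the difference was not tested. Between percentiles 50 and 90 of biosample 1, 14 of 68 distal peaks (20.6%, 12.7 to 31.6) met a peak of biosample 2, against 49.3% of all distal peaks in that range. Cav1 had 4 of 18, Cav2 1 of 13, Cavin1 3 of 21, Cavin2 1 of 6 and Cavin3 4 of 19, each lower than the share of all distal peaks on its chromosome in the same range, which was 45.8% on chromosome 6, 46.2% on 11, 49.6% on 1 and 53.9% on 7. Cav3 had 1 of 2. The windows of Cav1 and Cav2 overlap, so a peak in both was counted for each gene here and only once among the 68. The values of these genes are therefore not independent. Above percentile 90, 14 of 14 distal peaks were shared, against 93.6% in the list. The range of 50 to 90 was chosen after the values had been seen, neighbouring peaks are not independent, and no cause was tested.

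**Figure D4:**
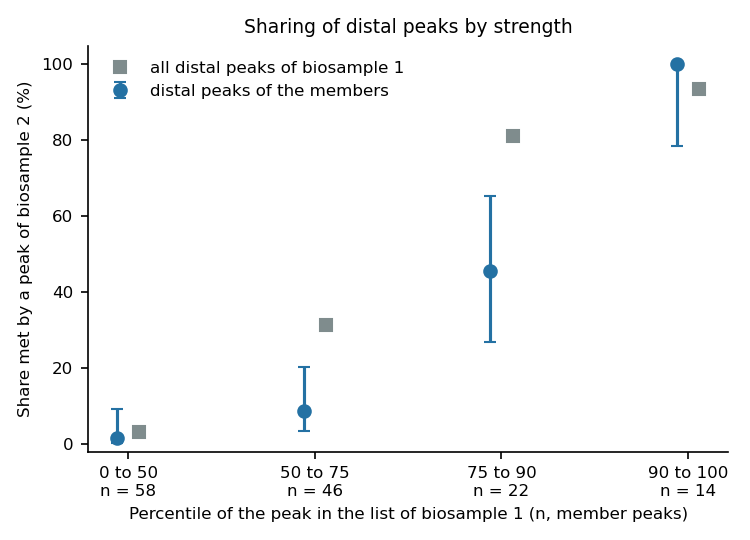
The share of distal peaks of biosample 1 met by a peak of biosample 2 (vertical, percent) is shown by percentile band of the peak in biosample 1 (horizontal), for the 6 genes (blue circles, with 95% Wilson intervals) and for the whole list (grey squares). The circles lie under the squares in the bands 50 to 75 (8.7% and 31.4%) and 75 to 90 (45.5% and 81.2%) and are close to them at either end.

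For each window, the strongest peak found in biosample 1 alone was, from the highest score to the lowest, chr11:100939696-100939845 beside the Stat3 start (135), chr6:17347916-17348065 beside the Gm29591 start (129), chr7:105487216-105487365 upstream of Cavin3 (117), chr1:51243376-51243525 upstream of Cavin2 (115), chr6:17314836-17314985 in the Cav1 intron (110) and chr6:112484456-112484605 near Cav3 (67). The first 2 lay inside a hotspot of biosample 2, and the other 4 did not. The last of them, near Cav3, lay in an intron of Oxtr. Of all 121 unshared peaks of biosample 1, 3 lay in a hotspot of biosample 2. The 5 peaks found in biosample 2 alone scored 41 in the Cavin1 intron, 32 at Cav2, 14 and 13 at Cavin2 and 7 near Cav3, and 4 of them lay in a hotspot of biosample 1.

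Of 12 genes for proteins that work with caveolae, 11 were open in both lists, where 53.7% of all protein-coding genes were. The count was 10 with the most upstream start or with the starts of coding transcripts only, by which Pacsin1 was not open. It was 9 with the stronger 50% of each list. The 53.7% was taken from the full lists with all starts. No share of all genes is given here for the most upstream start or for the stronger 50%. Of all genes with a CpG ratio of at least 0.6, 81.7% were open in both lists. Ehd1, Ehd4, Pacsin1, Pacsin2, Pacsin3, Dnm2 and Ror1 belonged to that class, and Cavin4, Ehd2, Ehd3, Flot1 and Flot2 did not. Ehd1, Ehd3 and Ehd4, ATPases of the caveola neck, scored 145, 142 and 139 in biosample 1 and 88, 54 and 91 in biosample 2, and Ehd2, the family member best known at caveolae, scored 100 in biosample 1 and had no promoter peak in biosample 2. Of the membrane-bending pacsins, Pacsin2 scored 148 and 78, Pacsin3 123 and 37 and Pacsin1, the form of neurons, 99 and 19. Dnm2, the dynamin that cuts vesicles from the membrane, scored 145 and 96. The receptor Ror1, a scaffold for CAV1 and CAVIN1, scored 130 and 50, and the flotillins Flot1 and Flot2 scored 141 and 92, and 112 and 28.

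Cavin4, the muscle cavin, scored 136 and 58 at its promoter, so it differed from Cav3, the muscle caveolin, in having a promoter peak in both lists. The median percentile of the strongest promoter peak was 97.9 and 95.4 over the open members, 96.1 and 82.6 over the partners with a peak, and 94.2 and 85.7 over all genes with one. Members and partners were picked from knowledge of caveolae, and these medians describe the lists only.

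Of 6 genes for proteins that reside in or signal from caveolae, 3 were open in both lists, a share near the 53.7% of all genes: the insulin receptor gene Insr (139 and 71) and the kinase genes Src (139 and 77) and Fyn (145 and 72). Cd36, the fatty acid transporter of fat cells, had a promoter peak scoring 51 in biosample 1 alone. Nos3, the endothelial nitric oxide synthase, and Plvap, the protein of endothelial diaphragms, had none.

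The labelled cell type was checked on marker lists. By the starts of all transcripts, 53.7% of all protein-coding genes were open in both lists. All 8 fibroblast genes were open in both, among them Col1a1, Col1a2 and Vim. Of 7 mature adipocyte genes, 1 was open in both lists (Plin1), 3 in biosample 1 alone and 3 in neither, Adipoq among them. Of the genes of muscle, the tissue that uses Cav3, 3 of 8 were open in both lists when the starts of all transcripts were counted (Ckm, Des and Myh1), and 1 of 8 by the starts of coding transcripts alone; Myod1 and Myog had no promoter peak. Of the endothelial and epithelial genes, 2 of 6 and 1 of 5 were open. By the starts of coding transcripts alone, 11318 of all 21911 protein-coding genes were open. The counts of the fibroblast, adipocyte, endothelial and epithelial lists were the same by those starts.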

How the data were processed

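DNase-seq of 4 libraries from 2 biosamples was used. Per the labels, reads were placed on mm10, and the tools (aligner, peak caller) are not given in the sources used here. Libraries were pooled by the authors within each biosample, so libraries could not be compared, and whether the biosamples were separate cultures is not stated. Each deposited peak carries a score, a whole number whose definition is not given, used to rank peaks within a list only. Each deposited hotspot carries a −log10 q value from 1.3 to a cap of 100. No read counts were in these lists, so the depth is unknown.

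Intervals on chromosomes 1 to 19, X and Y were checked to lie within GRCm38.p6. A peak was at the promoter within 1000 bp of any start site of any transcript of the gene, at another start within 1000 bp of that of another gene, and otherwise distal. Sharing needed an overlap of 1 bp or more (counts checked with bedtools 2.31.1), and a gene was open with a promoter peak in both lists. Percentiles are mean ranks within a list. Intervals are 95% Wilson intervals. Motifs were searched on both strands; CTCF used its consensus. Python 3.11.15, pandas 2.3.3, pysam 0.24.0 and scipy 1.17.1 were used, and the interval functions were tested on simulated data. The members, gene lists and tests were chosen with earlier results of these data known. Named were all members, partners and cargo genes; the strongest promoter peak and 2 strongest distal peaks per list, all promoter peaks of biosample 2 and the strongest unshared peak; other peaks named were chosen after their values were seen.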

Additional observations from a re-analysis of the deposited data

How the results depend on the processing

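Of 111 alternative values for 32 results, 88 stayed close to the value given and 23 moved. Close means within 1.5-fold for a count, inside the 95% Wilson interval for a share and equal for the percentile of a promoter peak, so the wide intervals of small groups pass larger shifts. The percentiles of the strongest promoter peaks could hardly move, as they come from the full list for peaks close to a start, and they add little to this tally. The share of promoter peaks of biosample 1 with a partner was 75% and became 60% with the limit of 2000 bp, which counts as close. The 5 open members stayed 5 with promoter limits of 500 and 2000 bp, with the most upstream start site only, with hotspots, with the stronger 50% of each list and with the list of biosample 1 shortened to the length of biosample 2. They also stayed 5 with the starts of coding transcripts only, an alternative chosen after seeing the data. Windows of 100 kb gave 263 and 95 peaks and 206 and 85 hotspots in biosample 1 and 2, against 132 and 48 hotspots in the windows used. Hotspots at the cap alone numbered 63 and 20. With the stronger 50% of each list, biosample 1 had 111 peaks, of which 36.9% were shared (29.3% of distal ones), and 97.6% of those of biosample 2 were shared; with hotspots, 97.9% were. With the list of biosample 1 shortened, 74 peaks were left, of which 66.2% were shared (58.3% of distal ones), so the share depends on list length. No paired analysis was possible because the lists pool the technical libraries, and for the same reason no library could be left out. The unknown depth limits every statement that a peak was in 1 list alone.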
